A study of Mus musculus with 6 samples.

Results

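The genes described here are those of the extracellular matrix and of the stromal cells that make it, read on 6 arrays of CD4-CD8- (double-negative, DN) cells from cultured mouse fetal thymus. The list named 36 genes. Each was taken at the probe set that carried that gene alone and had the highest mean level, and this yielded 35 of the 12393 genes tested. Fbn1 is not analysed here. Lobes of C57BL/6 fetuses taken at day 15 after conception were cultured for 6 days, to an age given as day 21, in medium that was renewed every 2 days and held either 10 nM TCDD (2,3,7,8-tetrachlorodibenzo-p-dioxin) or its solvent, dioxane. The dioxane share, 0.1% by volume, was given for the thymocyte label alone. Thymocytes came from ground lobes and emigrants from buffer flushed off the lobes, and in both cases DN cells were enriched with magnetic beads against CD4 and CD8, with the purity checked by flow cytometry per the labels. RNA of pooled cells was amplified and hybridised to 1 array per sample. Thymocytes had 1 array with dioxane and 1 with TCDD, and emigrants had 2 with each. The emigrant arrays are called emigrants 1 and emigrants 2 after the replicate numbers in the labels, and values of a pair are given as dioxane first, TCDD second.

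The extracellular matrix is the protein scaffold outside cells. Fibrillar collagens form its cables, collagen VI and collagen IV form finer networks, and small proteoglycans and glycoproteins bind to them. In the fetal thymus this matrix is laid down mainly by mesenchymal cells of neural crest origin, which surround the epithelial lobe and supply it with platelet-derived and insulin-like growth factors. T-cell precursors are not known as a main source of fibrillar collagen, and the labels describe sorting with beads against CD4 and CD8 and name no step against stromal cells. TCDD is a ligand of the aryl hydrocarbon receptor (AHR), a transcription factor that binds DNA as a dimer at the core letters GCGTG.

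Values are log2 levels, so that a difference of 1 is 2-fold. Array medians lay between 4.84 and 4.88, and 27 probe sets for bacterial transcripts, used as a guide to signal without target, reached at most 4.32 to 4.92 depending on the array. A level at or under its array's highest control is not separable from background, and a difference taken from it is only a bound. DN2 and DN3 T-lineage markers had list medians of 8.96 and 7.37 in thymocytes, 5.57 and 5.17 in emigrants 1, and 7.31 and 6.33 in emigrants 2. Macrophage and dendritic markers had medians of 5.61 and 5.59, 8.56 and 8.99, and 6.66 and 8.66 on the same arrays, so the emigrants labelled as DN cells also held myeloid transcripts. Emigrants 1 stood apart from the other 4 arrays in erythroid markers as well, with list medians of 6.79 and 6.87 against 4.42 to 4.83. Precision is limited by how few arrays there are. Whether the arrays of a group stem from separate cultures is not stated, so a p-value here reflects the spread between the arrays alone, which may be technical.

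The promoters of 4 genes on which the results turn are shown for orientation: Col1a2 and Col3a1, which had the largest TCDD differences among fibrillar collagens in emigrants, Fstl1, which followed the same arrays, and Timp2, which was higher with TCDD in each pair. RefSeq (GRCm38.p6) gave promoters for 24 of the 35 genes, each from 250 bases before to 50 bases after a transcript start. Capitals mark GCGTG (the AHR core), CCAAT and TATAAA on either strand, so that ATTGG is CCAAT on the other strand. The windows lie at chr6:4505368-4505667 (plus strand) for Col1a2, chr1:45311288-45311587 (plus strand) for Col3a1, chr16:37776805-37777104 (plus strand) for Fstl1 and chr11:118355362-118355661 (minus strand) for Timp2, each written 5′ to 3′ along the gene.
Col1a2: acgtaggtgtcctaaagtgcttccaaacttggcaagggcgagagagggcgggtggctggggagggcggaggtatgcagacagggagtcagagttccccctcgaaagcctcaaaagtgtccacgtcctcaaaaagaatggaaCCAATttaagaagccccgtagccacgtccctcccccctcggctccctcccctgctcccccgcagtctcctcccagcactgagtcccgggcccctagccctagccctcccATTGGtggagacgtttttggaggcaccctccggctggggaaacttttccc
Col3a1: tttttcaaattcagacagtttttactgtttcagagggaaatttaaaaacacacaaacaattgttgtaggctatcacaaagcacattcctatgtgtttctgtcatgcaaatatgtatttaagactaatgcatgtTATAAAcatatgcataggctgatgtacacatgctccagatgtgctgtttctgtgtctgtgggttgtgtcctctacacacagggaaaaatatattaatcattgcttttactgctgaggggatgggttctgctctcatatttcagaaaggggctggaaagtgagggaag
Fstl1: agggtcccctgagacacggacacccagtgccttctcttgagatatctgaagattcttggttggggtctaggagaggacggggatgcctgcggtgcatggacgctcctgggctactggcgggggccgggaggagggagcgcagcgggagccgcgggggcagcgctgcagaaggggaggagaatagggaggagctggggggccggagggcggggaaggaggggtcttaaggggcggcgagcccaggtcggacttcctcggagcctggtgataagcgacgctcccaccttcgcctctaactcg
Timp2: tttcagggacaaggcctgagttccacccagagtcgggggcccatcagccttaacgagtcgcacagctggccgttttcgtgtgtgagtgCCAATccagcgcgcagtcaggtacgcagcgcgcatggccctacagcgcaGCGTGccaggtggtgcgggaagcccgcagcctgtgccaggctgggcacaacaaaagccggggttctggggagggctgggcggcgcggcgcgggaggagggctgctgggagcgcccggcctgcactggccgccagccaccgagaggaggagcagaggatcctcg

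The Col1a2 window held CCAAT at -109 from the transcript start and, on the other strand, at 0, the start itself. The Col3a1 window held TATAAA at -117, and the Timp2 window held CCAAT at -162 and GCGTG at -113. None of these letters stood in the Fstl1 window. Over both strands, GCGTG was in 10 of the 30 member promoters (33.3%) and in 32.4% of all 32851 promoters of 300 bases. The longer form TNGCGTG, which contains GCGTG, was in 1 member promoter, that of Timp3, and in 5.07% of all promoters. CCAAT was in 33.3% of member promoters against 37.4% of all, and TATAAA in 16.7% against 13.6%. These matches describe letters only and say nothing about binding.

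Matrix genes were read most clearly on the 2 thymocyte arrays and on 1 emigrant array, that of emigrants 2 with TCDD. Of the 35 genes, 30 and 31 exceeded the highest bacterial control in thymocytes, 25 and 18 in emigrants 1, and 19 and 31 in emigrants 2. As shares, these were 85.7% and 88.6%, 71.4% and 51.4%, and 54.3% and 88.6%, against 62.5% and 69.5%, 73.9% and 57.4%, and 67.6% and 70.5% of all genes, so the members exceeded the share of all genes on the thymocyte arrays and on emigrants 2 with TCDD. The median level over the 35 genes was 6.21 and 6.04 in thymocytes, 4.80 and 5.12 in emigrants 1, and 4.79 and 5.84 in emigrants 2. In all, 16 genes exceeded the control on each array, against 53.7% of all genes tested, and 27 of 35 had a range of at least 1 log2 unit over the 6 arrays, against 33.1% of all genes. In RNA of pooled cells, fewer cells of a type and less RNA per cell cannot be told apart.

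**Figure D1:**
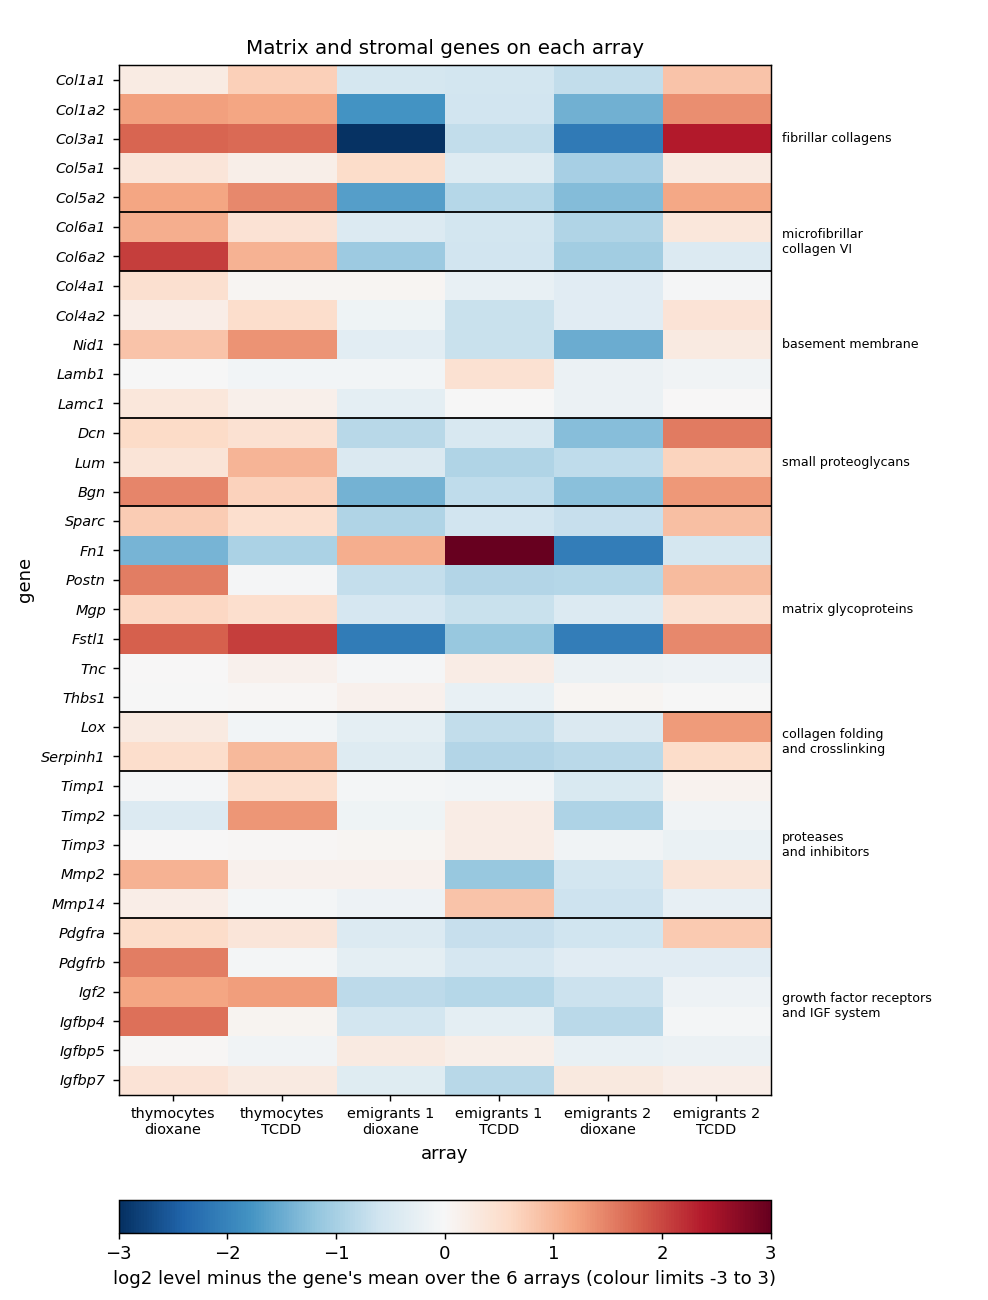
Log2 level of each of the 35 matrix and stromal genes (rows, grouped by role) on each of the 6 arrays (columns), as the difference from the gene's own mean over the arrays, with colours limited to -3 and 3. Most rows are red on both thymocyte arrays and on emigrants 2 with TCDD and blue on the other 3 emigrant arrays, while Fn1 is highest in emigrants 1 with TCDD.

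Fibrillar collagens come first. Col3a1, the chain of collagen III in elastic connective tissue, measured 9.03 and 9.0 in thymocytes, 4.33 and 6.54 in emigrants 1, and 5.18 and 9.67 in emigrants 2. Col1a2, the second chain of collagen I, measured 8.17 and 8.12 in thymocytes, 5.16 and 6.37 in emigrants 1, and 5.51 and 8.34 in emigrants 2. For both genes the array of emigrants 2 with TCDD was the highest of the 6 and stood above the thymocytes. Col5a2, a chain of collagen V, which helps to start fibril assembly, measured 6.66 and 6.92 in thymocytes, 3.83 and 4.62 in emigrants 1, and 4.17 and 6.64 in emigrants 2. Col1a1, the major chain of collagen I, measured 5.41 and 5.87, 4.63 and 4.60, and 4.41 and 6.00 in the same order. Both had only emigrants 2 with TCDD near the thymocyte levels, and the other emigrant arrays close to or under the control. Col5a1, the other collagen V chain, measured 7.08 and 6.90 in thymocytes, 7.27 and 6.32 in emigrants 1, and 5.73 and 6.99 in emigrants 2, with no separation of thymocytes from emigrants.

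Collagen VI, a beaded microfilament around many mesenchymal cells, was highest in thymocytes with dioxane. Col6a1 measured 8.18 and 7.51 in thymocytes, 6.68 and 6.53 in emigrants 1, and 6.18 and 7.44 in emigrants 2. Col6a2 measured 8.17 and 7.13, 5.01 and 5.51, and 5.05 and 5.69. Both thymocyte arrays lay above all 4 emigrant arrays for each chain, by a margin of 0.07 for Col6a1 and 1.45 for Col6a2.

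Basement membrane genes were mostly dim. Nid1, nidogen, which links laminin to collagen IV, measured 6.04 and 6.53 in thymocytes, 4.88 and 4.52 in emigrants 1, and 3.70 and 5.44 in emigrants 2. Col4a2, a chain of collagen IV, measured 4.36 and 4.68, 4.03 and 3.50, and 3.83 and 4.59, and exceeded the control only on the 2 TCDD arrays of thymocytes and emigrants 2. Its partner chain Col4a1 ranged from 5.39 to 6.21 and Lamc1, a laminin chain, from 4.28 to 4.90. Lamb1, another laminin chain, was under the control on each of the 6 arrays.

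The small proteoglycans, which bind collagen fibrils and space them, followed the fibrillar collagens. Bgn, biglycan, measured 8.34 and 7.58 in thymocytes, 5.46 and 6.12 in emigrants 1, and 5.64 and 8.18 in emigrants 2. Dcn, decorin, measured 6.16 and 6.04, 4.76 and 5.12, and 4.31 and 7.14. Lum, lumican, measured 5.56 and 6.18, 4.73 and 4.28, and 4.41 and 5.84. In all 3 genes emigrants 2 with TCDD lay well above the other emigrant arrays, and for Dcn it was also above both thymocyte arrays.

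Among matrix glycoproteins, Fstl1, a secreted protein of mesenchymal cells, measured 8.34 and 8.64 in thymocytes, 4.44 and 5.42 in emigrants 1, and 4.47 and 7.99 in emigrants 2. Sparc, osteonectin, a collagen-binding regulator of matrix assembly, measured 6.66 and 6.41, 4.99 and 5.33, and 5.22 and 6.82. Both were low on 3 emigrant arrays and near the thymocyte levels on the array of emigrants 2 with TCDD. Postn, periostin, which supports collagen crosslinking, measured 6.33 and 4.77 in thymocytes, 4.08 and 3.92 in emigrants 1, and 3.94 and 5.73 in emigrants 2. Mgp, matrix Gla protein, an inhibitor of calcification, measured 5.02 and 4.89, 3.90 and 3.72, and 3.98 and 4.85. For both, 3 of the 4 emigrant arrays were under the control. Tnc, tenascin C, and Thbs1, thrombospondin, were under the control on each of the 6 arrays.

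Fn1, fibronectin, the adhesive glycoprotein that integrins bind, had another order of arrays. It measured 7.27 and 7.72 in thymocytes, 9.77 and 12.53 in emigrants 1, and 6.60 and 8.15 in emigrants 2. Both arrays of emigrants 1 were above all others, and TCDD was above dioxane in each of the 3 pairs. The macrophage list and the list of neutrophil and mast cell markers were high there too. Medians of the latter were 7.83 and 9.19 on these 2 arrays, 6.60 on emigrants 2 with TCDD and 4.89 to 5.64 elsewhere. The 3 highest arrays stood in the same order as for Fn1. Macrophage medians were 8.56 and 8.99 on these 2 arrays and 8.66 on emigrants 2 with TCDD. Their part in the Fn1 levels was not tested. Col14a1, a collagen bound to fibril surfaces, had the largest TCDD difference in emigrants among 20 further collagens, at -1.66 ± 1.71 (log2, SE). Unlike Fn1, it was highest on emigrants 1 with dioxane. It measured 5.37 and 5.15 in thymocytes, 9.19 and 5.54 in emigrants 1, and 4.14 and 4.47 in emigrants 2.

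Folding and crosslinking of collagen were read by 2 members. Serpinh1, the collagen chaperone HSP47, measured 7.28 and 7.73 in thymocytes, 6.37 and 5.87 in emigrants 1, and 5.95 and 7.29 in emigrants 2. Lox, lysyl oxidase, which crosslinks collagen and elastin, measured 5.48 and 5.13, 4.92 and 4.49, and 4.79 and 6.49. The highest array was thymocytes with TCDD for Serpinh1 and emigrants 2 with TCDD for Lox.

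Among the proteases and their inhibitors, Timp2, an inhibitor of metalloproteinases, measured 8.72 and 10.45 in thymocytes, 9.0 and 9.34 in emigrants 1, and 8.19 and 9.03 in emigrants 2. Mmp2, the gelatinase that cleaves denatured collagen and collagen IV, measured 6.48 and 5.58, 5.59 and 4.32, and 4.90 and 5.83. Mmp14, the membrane-bound protease that activates Mmp2, measured 5.17 and 4.91, 4.80 and 5.82, and 4.34 and 4.72. TCDD was above dioxane in all 3 pairs for Timp2, in emigrants 2 alone for Mmp2 and in both emigrant pairs for Mmp14. The other probe set of Mmp2 was higher with TCDD in both emigrant pairs, by 0.30 and 0.44. Timp1 and Timp3, other inhibitors of the family, ranged from 3.99 to 4.94 and from 4.93 to 5.36.

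Growth factor receptors and the insulin-like growth factor system completed the list. Pdgfra and Pdgfrb, receptors for platelet-derived growth factors that mark mesenchymal and mural cells, measured low. Pdgfra had 4.87 and 4.67 in thymocytes, 3.90 and 3.61 in emigrants 1, and 3.70 and 5.10 in emigrants 2. Pdgfrb had 5.58 and 3.97, 3.75 and 3.53, and 3.71 and 3.70. It exceeded the control on 1 array, that of thymocytes with dioxane. Igf2, a fetal growth factor, measured 7.34 and 7.43 in thymocytes, 5.38 and 5.32 in emigrants 1, and 5.51 and 6.02 in emigrants 2. Igfbp4, which binds insulin-like growth factors, measured 9.98 and 8.40, 7.76 and 8.02, and 7.50 and 8.27. The thymocyte arrays lay above all 4 emigrant arrays for both, by at least 1.32 for Igf2 and by 0.14 for Igfbp4. Igfbp7, a related secreted protein, measured 5.22 and 5.07, 4.43 and 3.98, and 5.11 and 5.01, and Igfbp5 ranged from 6.54 to 7.03.

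**Figure D2:**
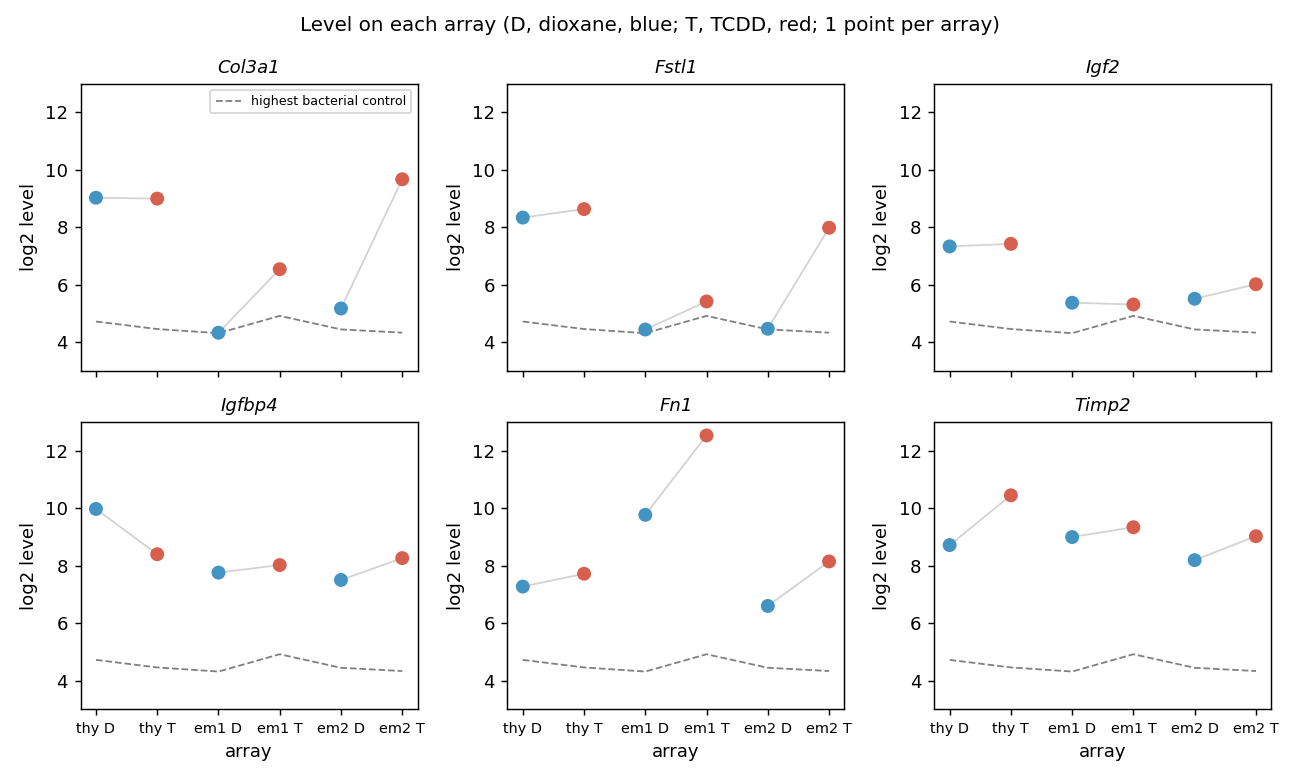
Log2 level of Col3a1, Fstl1, Igf2, Igfbp4, Fn1 and Timp2 (panels) on each array, with 1 point per array (blue, dioxane, D; red, TCDD, T), grey lines joining the arrays of a pair and the dashed line marking the highest bacterial control. Col3a1 went from 5.18 to 9.67 between the arrays of emigrants 2 and stayed at 9.03 and 9.0 in thymocytes, and Fn1 reached 12.53 in emigrants 1 with TCDD.

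The first comparison asked how matrix genes differed with TCDD in emigrants (2 arrays against 2). The difference was positive for 30 of 35 genes, against 46.5% of all genes tested, with a median of 0.51 against -0.02 over all genes. The difference (log2 ± SE, n = 2 arrays per group) was 3.35 ± 1.09 for Col3a1, and TCDD was above dioxane for Fstl1 by 2.25 ± 0.87, Fn1 by 2.16 ± 1.79 and Col1a2 by 2.02 ± 0.69. No difference passed: limma called 0 of 35 members and 0.0% of all genes, with adjusted p = 1.00 for each of the 35. At an unadjusted p under 0.05 it reached 2 members, Col1a2 and Col3a1, both higher, against 1.24% of all genes in that direction. By role, the median difference was 1.64 for the 5 fibrillar collagens, 1.60 for the 3 small proteoglycans and 0.82 for the 7 glycoproteins. It was 0.24 for the 5 basement membrane genes, 0.27 for the 5 proteases and inhibitors and 0.10 for the 6 receptors and growth factor genes. Both TCDD arrays lay above both dioxane arrays for 11 of 35 genes, against 10.5% of all genes: Col1a2, Col3a1, Col5a2, Col6a2, Sparc, Dcn, Bgn, Fstl1, Lamc1, Timp2 and Igfbp4. They lay below for Thbs1 and Pdgfrb, 2 of 35 against 14.2%. The median rested on the array of emigrants 2 with TCDD, since it was 0.17 without that array and 0.30 without emigrants 2 with dioxane. The count of 11 became 22 (28.1% of all genes) without emigrants 1 with dioxane and 24 (25.1%) without emigrants 1 with TCDD. It was 11 (30.7% of all genes) without emigrants 2 with dioxane, where 11 of 35 is near the background, and 16 (30.1%) without emigrants 2 with TCDD. Without both arrays of emigrants 1 it was 31 (45.3%), with a median of 0.93.

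The pairs of single arrays show where these differences lay, as a description without a test. In emigrants 2, 31 of 35 genes were higher with TCDD, with a median of 0.93, and 17 were at least 2-fold higher, against 3.43% of all genes. The largest were Col3a1 at 4.49, Fstl1 at 3.51, Dcn at 2.83, Col1a2 at 2.83, Bgn at 2.54 and Col5a2 at 2.48. No member was 2-fold lower there, against 2.16% of all genes. In emigrants 1, 16 genes were higher and 19 lower, with a median of -0.03. In the list of AHR target genes, 8 of 12 were higher with TCDD in emigrants 1, with a median of 0.25. The counts were 12 of 12 with 1.51 in emigrants 2 and 10 of 12 with 0.81 in thymocytes. Cyp1b1 was higher by 1.24 in emigrants 1, 4.23 in emigrants 2 and 3.62 in thymocytes. Ahrr, the AHR repressor, and Tiparp differed by -0.42 and -0.01 in emigrants 1, and by 3.75 and 3.50 in emigrants 2. Ahrr with TCDD in emigrants 1, at 4.04, was under the highest control of that array. Cyp1a1 differed by 0.255 in emigrants 1, where both levels were under the control, and by 2.14 in emigrants 2. Scin and Serpinb2 were alike in both emigrant pairs. Scin differed by 1.85 in emigrants 1 and 2.02 in emigrants 2, and Serpinb2 by 1.41 and 1.42. Ahrr, Tiparp, Cyp1a1 and Serpinb2 were named after their values were seen. The relation of this list to the matrix differences was not tested. In emigrants 1, the matrix genes at least 2-fold higher were Fn1 at 2.76, Col3a1 at 2.21, Col1a2 at 1.21 and Mmp14 at 1.02. This makes 4 of 35 against 3.66% of all genes. Mmp2 was the only member 2-fold lower in emigrants 1, at -1.27, against 2.56%. Its level with TCDD there, 4.32, was under the highest control of that array, 4.92, and its other probe set gave 0.30. The other probe set of Col3a1 gave -0.26 in emigrants 1 and 2.71 in emigrants 2, and that of Fstl1 gave -0.43 and 1.67. With the mean of a gene's probe sets in place of the brightest, 1 member was 2-fold higher in emigrants 1 (2.63% of all genes) and 11 in emigrants 2 (2.57%).

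In thymocytes the signs were mixed. There, 14 were higher with TCDD and 21 lower, with a median of -0.11 and 1 array on each side. Timp2, at 1.73, was the only member at least 2-fold higher, against 2.83% of all genes. Pdgfrb at -1.60, Postn at -1.57, Igfbp4 at -1.57 and Col6a2 at -1.04 were at least 2-fold lower, 4 of 35 against 2.79%. The collagens that differed most in emigrants 2 were level in thymocytes, with Col3a1 at -0.03 and Col1a2 at -0.05. With the mean of probe sets, no member was 2-fold higher (1.98% of all genes) and 2 were 2-fold lower (1.63%). That summary turned the sign of 7 members in thymocytes, among them Sparc, from -0.24 to 0.37, Fstl1, from 0.30 to -0.21, and Col5a2, from 0.26 to -0.09. Dsp, desmoplakin, and Cdh1, E-cadherin, both epithelial, measured 4.24 and 8.73 and 4.33 and 7.42 in thymocytes. The epithelial marker list had medians of 4.57 and 5.24, and Dsp and Cdh1 passed from below the median to above it. All other genes of that list differed by -0.24 (Cldn4) to 0.69 (Epcam), with Foxn1 at -0.01 and Krt5 at 0.09. Cldn4, Epcam, Foxn1 and Krt5 were named after their values were seen. The part of epithelial transcripts in the thymocyte differences was not tested.

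**Figure D3:**
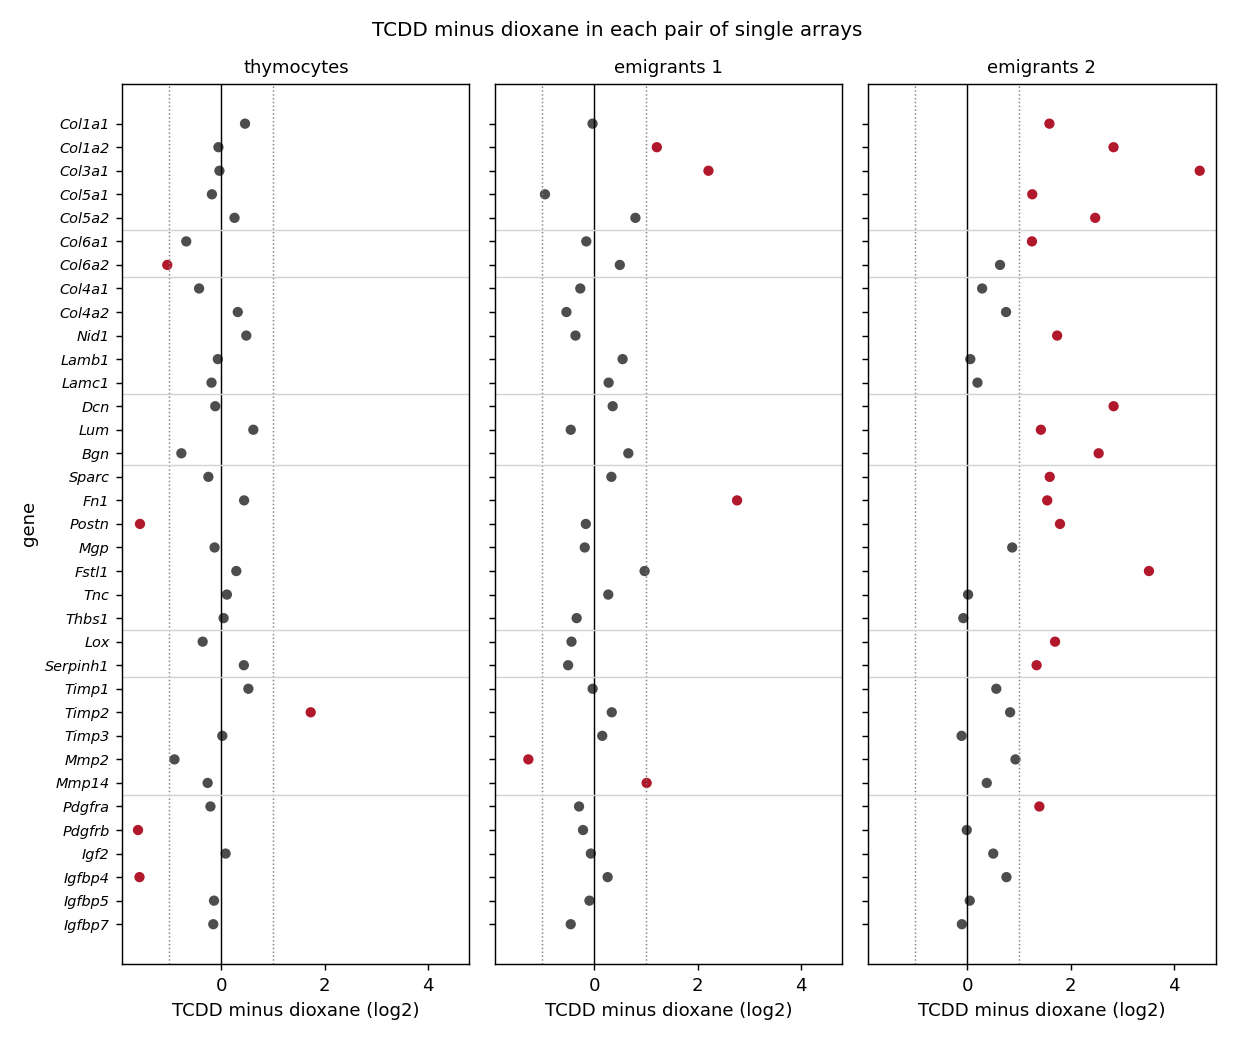
Log2 difference of TCDD minus dioxane for each of the 35 genes (rows) in thymocytes, emigrants 1 and emigrants 2 (panels), each point from 2 single arrays, with dotted lines at 2-fold and red points beyond them. In emigrants 2, 17 points lie beyond 2-fold on the right and none on the left, against 4 and 1 in emigrants 1 and 1 and 4 in thymocytes.

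Over both cell sources (3 TCDD against 3 dioxane arrays, source in the model), the difference was positive for 28 of 35 genes, against 47.2% of all genes, with a median of 0.19 against -0.02. The median was 0.02 without emigrants 2 with TCDD and 0.51 without the one or the other thymocyte array. Timp2 came nearest to a call, higher by 0.97 ± 0.34 (log2, SE, n = 3 per group). limma called 0.0% of all genes and no member, with an adjusted p of 0.889 for Timp2. Timp2 was the 1 member (2.86%) at an unadjusted p under 0.05, near the 2.69% of all genes in that direction. TCDD was above dioxane in all 3 pairs for 5 of 35 genes, Col5a2, Fn1, Fstl1, Tnc and Timp2. This count, 14.3%, was not above the background, 15.4% of all genes, and Tnc was under the control on each array. With the mean of probe sets Col5a2 and Fstl1 were lower in thymocytes, and the difference of Timp2 was 0.52. TCDD was below dioxane in all 3 pairs for Pdgfrb and Igfbp7, 2 of 35 against 17.4%. With the mean of probe sets Igfbp7 was higher by 0.11 in thymocytes and by 0.37 in emigrants 2. Pdgfrb was under the control on all emigrant arrays, with a difference of -0.01 in emigrants 2. For no member was TCDD above dioxane by at least 0.5 in all 3 pairs, against 1.29% of all genes. A second bright probe set of Timp2 measured 7.42 and 9.42 in thymocytes, 7.85 and 8.83 in emigrants 1, and 8.03 and 9.20 in emigrants 2, likewise with TCDD above dioxane in each pair. The other 4 of its 6 probe sets were dimmer, and 1 of these also had TCDD above dioxane in each pair, by 1.64, 0.15 and 0.76.

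Set against each other by an interaction term, the TCDD effects (emigrants minus thymocytes) differed with a positive sign for 28 of 35 genes, against 47.6% of all genes, with a median of 0.47 against -0.02 over all genes. It was 0.29 without emigrants 2 with TCDD and 0.86 without emigrants 1 with dioxane. Igfbp4 had 2.09 ± 0.43, Col6a2 1.61 ± 0.40 and Pdgfrb 1.49 ± 0.39 (log2, SE), and these 3 were at an unadjusted p under 0.05, against 0.452% of all genes in that direction. limma called 0.0% of all genes and no member, with an adjusted p of 1.00 for each. For Pdgfrb the emigrant arrays were all under the control, so its value rests on the thymocyte pair. Igfbp4 has 6 probe sets, of which the brightest gave -1.57 in thymocytes and the others -2.43 to 0.00. Taken as the mean of probe sets, the value was 1.06 for Igfbp4 and 0.92 for Pdgfrb. Both emigrant pairs were higher and the thymocyte pair lower for 10 of 35 genes, against 7.92% of all genes.

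The third question was how emigrants stood against thymocytes (4 arrays against 2, treatment in the model). The difference was negative for 32 of 35 genes and positive for 3, against 44.0% positive over all genes, with a median of -0.77 against -0.04 over all genes. Fstl1 differed by -2.91 ± 0.80 (log2, SE, n = 4 and 2), Col6a2 by -2.34 ± 0.38, Col5a2 by -1.97 ± 0.63, Igf2 by -1.82 ± 0.24 and Nid1 by -1.65 ± 0.42. None passed: limma called 0.0% of all genes, and the smallest adjusted p among members was 0.320, for Col6a2 and Igf2. At an unadjusted p under 0.05 stood 10 members, all lower in emigrants, against 3.90% of all genes in that direction: those 5, Col1a2 at -1.80 ± 0.70, Igfbp4 at -1.30 ± 0.48, Col6a1 at -1.14 ± 0.40, Serpinh1 at -1.14 ± 0.41 and Pdgfrb at -1.10 ± 0.35. Fn1, Lamb1 and Igfbp5 were the 3 members with a positive difference, and that of Fn1 was 1.76 ± 1.46. Taken as the mean of probe sets, the differences were smaller for Col5a2 at -1.18, Igf2 at -1.03, Nid1 at -0.87, Igfbp4 at -0.72 and Pdgfrb at -0.71, and that of Igfbp5 was -0.55. The median was -0.42 without thymocytes with dioxane and -1.12 without emigrants 2 with TCDD.

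Both thymocyte arrays lay above all 4 emigrant arrays for 11 of 35 genes, against 10.8% of all genes: Col4a1, Col5a2, Col6a1, Col6a2, Mgp, Fstl1, Nid1, Lamc1, Pdgfrb, Igf2 and Igfbp4. Without emigrants 2 with TCDD the count was 24, against 13.3% of all genes. For no member did both lie below all 4, against 5.46%. Among the 11, the lowest thymocyte array exceeded the highest emigrant array by only 0.02 for Col4a1 and Col5a2 and 0.04 for Mgp. The margin reached 1.32 for Igf2 and 1.45 for Col6a2. For Pdgfrb both levels of the margin, 3.97 and 3.75, were under the control. Array by array, 15 members were at least 2-fold lower in emigrants 1 with dioxane than in thymocytes with dioxane (6.62% of all genes), and 20 in emigrants 2 with dioxane (2.03%). With TCDD the counts were 18 in emigrants 1 (4.23%) and 4 in emigrants 2 (1.95%), namely Col6a2, Nid1, Timp2 and Igf2. Col6a2, Nid1 and Igf2 were at least 2-fold lower in each of these 4 comparisons, with differences of -3.16, -3.12, -1.62 and -1.45 for Col6a2, -1.16, -2.34, -2.01 and -1.08 for Nid1, and -1.96, -1.82, -2.11 and -1.41 for Igf2. Dcn and Lox were at least 2-fold higher in emigrants 2 with TCDD than in the thymocytes with TCDD, 2 of 35 against 4.67%. Fn1 was the only member so in emigrants 1 with either treatment. This is 1 of 35 against 5.17% of all genes with dioxane and 4.72% with TCDD. No member was at least 2-fold higher in emigrants 2 with dioxane, against 3.63%.

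**Figure D4:**
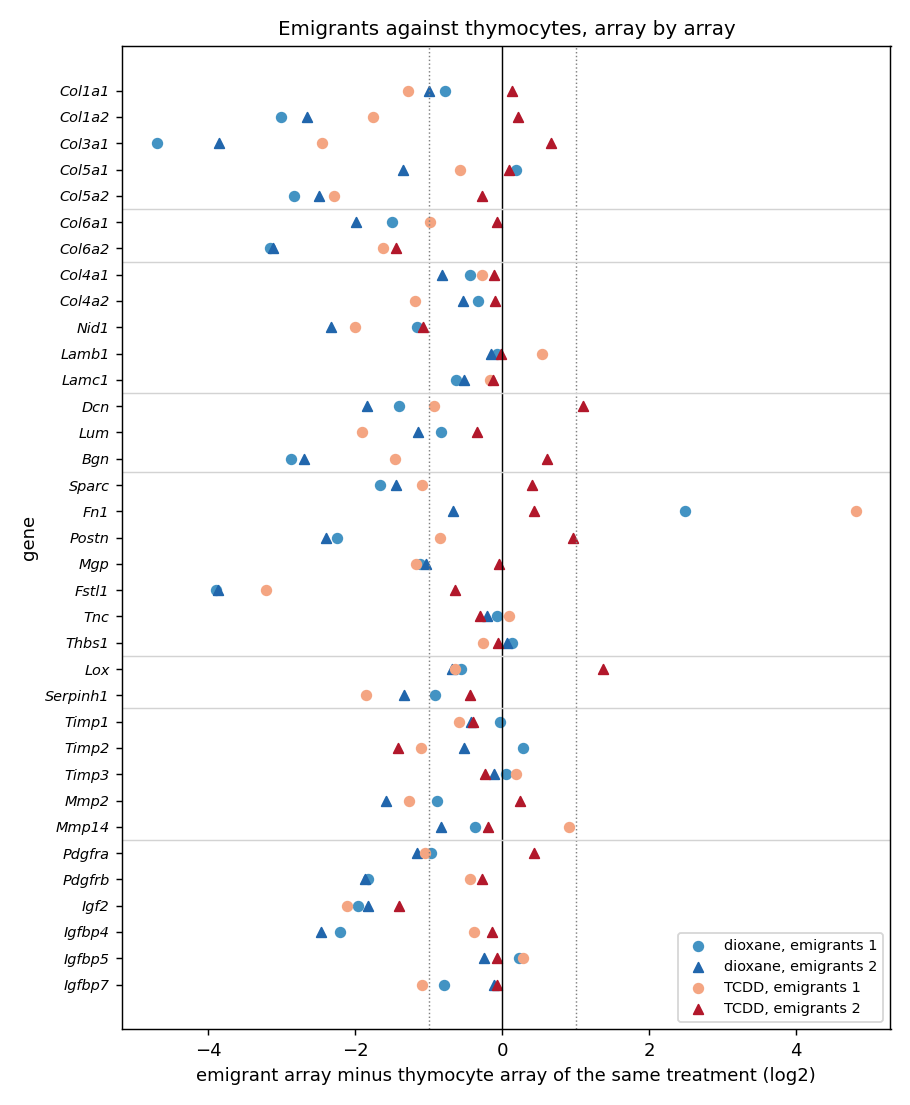
Log2 difference between each emigrant array and the thymocyte array of the same treatment for each of the 35 genes (rows), with circles for emigrants 1, triangles for emigrants 2, blue for dioxane and red tones for TCDD, and dotted lines at 2-fold. Both dioxane comparisons and that of emigrants 1 with TCDD lie mostly left of 0, with 15, 20 and 18 genes beyond 2-fold, while emigrants 2 with TCDD has 4.

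The emigrant arrays themselves differed in matrix genes. Emigrants 2 with TCDD was the highest of the 4 emigrant arrays for 23 of 35 genes, against 19.1% of all genes. It exceeded each of the other 3 by at least 1 log2 unit for 12 of 35 genes, against 1.39%: Col1a1, Col1a2, Col3a1, Col5a2, Sparc, Dcn, Lum, Bgn, Postn, Fstl1, Lox and Pdgfra. Between the TCDD arrays alone, emigrants 2 was at least 2-fold above emigrants 1 for 17 of 35 genes (5.87% of all genes) and below for Fn1 and Mmp14 (3.81%). Between the dioxane arrays, no member was at least 2-fold higher in emigrants 2, against 7.83% of all genes, and Col5a1, Fn1 and Nid1 were lower (4.71%). Of those 17 genes, 13 were also among the 17 at least 2-fold higher than in emigrants 2 with dioxane, and both counts rest on the same array, emigrants 2 with TCDD. The second probe set of Sparc followed the same order, with 3.72 and 3.76 in emigrants 1 and 3.76 and 6.99 in emigrants 2.

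Other matrix genes, taken from lists that did not include the members, differed less on the median. With TCDD in emigrants, 9 of 20 further collagens were higher, with a median of -0.04, 3 of 12 basement membrane genes with -0.14, and 14 of 22 elastic fibre and glycoprotein genes with 0.09. Collagen processing genes were higher in 13 of 16 with a median of 0.22, proteoglycans in 11 of 16 with 0.18, matrix proteases and inhibitors in 11 of 19 with 0.04, and platelet-derived and insulin-like growth factor genes in 8 of 11 with 0.21. limma called none of them. Part of these genes were dim. On the emigrant arrays 4 to 5 of the 12 basement membrane genes and 3 to 5 of the 11 growth factor genes exceeded the control. Of the 16 collagen processing genes, 9 to 13 did. Members and lists were chosen with earlier results known, so the contrast between them is a description only. Mmp13, a collagenase, measured 3.05 and 3.46 in thymocytes, 3.52 and 5.05 in emigrants 1, and 3.38 and 8.85 in emigrants 2, and its difference in emigrants was 3.50 ± 1.27 (adjusted p = 1.00 in limma). Igf1, a growth factor of macrophages and stroma, measured 6.34 and 6.16, 7.99 and 8.80, and 7.73 and 9.55, higher in emigrants than in thymocytes by 2.26 ± 0.41 (log2, SE; adjusted p = 0.325 in limma). Col6a3, the third chain of collagen VI, differed by -1.85 ± 0.46 between emigrants and thymocytes (adjusted p = 0.493 in limma).

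Markers of the cells that could carry these transcripts gave a mixed picture. Of 22 fibroblast and mural markers, 10 and 13 exceeded the control in thymocytes, 11 and 8 in emigrants 1, and 10 and 13 in emigrants 2, with list medians of 4.40 and 4.71, 4.15 and 4.35, and 4.06 and 4.63. Thy1, which T-lineage cells also express and which stands in both lists, took a large share of the summed linear level. Without it the sum over the other 21 was 559 and 568 in thymocytes, 484 and 536 in emigrants 1, and 414 and 602 in emigrants 2, against 1391 and 957, 536 and 566, and 950 and 1011 with it. With TCDD in emigrants, 16 of the 22 were higher with a median of 0.18, and Pdpn, podoplanin, was higher by 1.32 ± 0.30 and Cdh11, cadherin 11, by 1.00 ± 0.64 (log2, SE, n = 2 per group; adjusted p = 1.00 each in limma). Cdh11 was above the control on 1 array, emigrants 2 with TCDD, at 5.22. The mesenchymal transcription factors of the list were all named here after their values were seen. Twist1, Prrx2, Osr1, Tcf21, Meox2 and Foxc1 were under the control on each of the 6 arrays. Twist2 (4.79 to 5.55) and Prrx1 (4.62 to 4.99) were above it on each. Of 17 endothelial markers 5 to 9 exceeded the control, with list medians of 4.01 to 4.52. Those named here were also named after their values were seen. Pecam1, Cdh5, Tek, Tie1, Emcn, Vwf, Robo4 and Sox17 were under the control on each array, and Kdr, Flt1, Egfl7, Esam and Cldn5 above it on each. The macrophage list was higher with TCDD in emigrants for 19 of 21 genes with a median of 0.91, and its summed level was 1994 and 4700 in thymocytes, 7023 to 22027 in emigrants with dioxane and 18098 to 24937 in emigrants with TCDD. With TCDD in emigrants the neutrophil and mast cell list was higher in 15 of 16 genes with a median of 0.96. The T-lineage list was higher in 1 of 18 with -0.57. RNA quality, read as the actin level at the 3′ end minus that at the 5′ end, also differed, with 3.48 and 4.15 in thymocytes, 3.06 and 3.77 in emigrants 1, and 3.01 and 3.36 in emigrants 2. For Gapdh the same measure was 6.10 and 5.86, 4.75 and 5.6, and 4.69 and 4.75. The part of these cell markers or of RNA quality in the matrix differences was not tested.

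**Figure D5:**
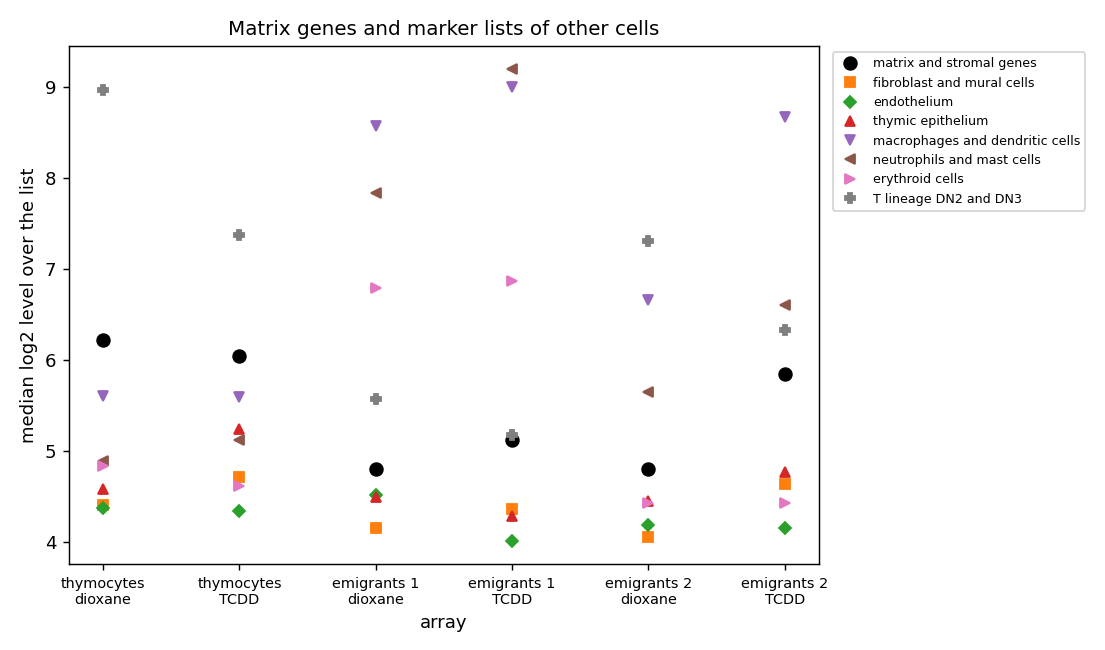
Median log2 level of the 35 matrix and stromal genes (black circles) and of 7 marker lists (coloured symbols) on each of the 6 arrays, to be read across arrays within a list and not between lists. The matrix median is 6.21 and 6.04 in thymocytes, 5.84 in emigrants 2 with TCDD and 4.79 to 5.12 on the other emigrant arrays, and the macrophage median is highest on both arrays of emigrants 1 and on emigrants 2 with TCDD.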

How the data were processed

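RNA of DN cells was measured on 6 Affymetrix arrays. The deposited values are log2 levels from RMA, which corrects background and normalises across arrays, per the submitters' processing notes; the series design text names the affy package, versions were not given in the sources used here. Detection calls are not part of RMA, which also compresses differences of dim genes.

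Of 22690 deposited probe sets, 64 controls were left out, 691 carried several genes and 1555 none. The remaining 20380 gave 12393 genes, each at its brightest single-gene probe set; 27 members had several. Models over all genes used lmFit and eBayes of limma 3.58.1 (R 4.3.3), with Benjamini-Hochberg adjustment over all genes and calls at an adjusted p under 0.05. A lone array was assumed to vary like the others. The code was tested on simulated data.

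Levels on each array are given for members above the highest bacterial control on at least 1 array with a range of at least 1 log2 unit (27 of 35). Other listed genes are named where they had the 2 largest differences of their list, or where the text says they were named after their values were seen. The members and lists were chosen with earlier results of these data known. Emigrant arrays share replicate numbers in the labels, but with 2 pairs these were not taken as pairing. Alternatives were cyclic loess, median centring, the mean of probe sets, genes at or above the median level, an intensity trend, a threshold of 0.1, array number as a block, models without covariate, and each array left out.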

Additional observations from a re-analysis of the deposited data

Results flagged for a closer look

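For 11 genes both emigrant pairs differed one way with TCDD and the thymocyte pair the other way. The difference of the TCDD effects (emigrants minus thymocytes, log2) was 3.38 for Col3a1, with -0.03 in thymocytes and 2.21 and 4.49 in emigrants, 2.07 for Col1a2 and 2.37 for Bgn. It was 2.09 for Igfbp4, 1.71 for Dcn, 1.61 for Col6a2, 1.21 for Sparc and 0.96 for Mmp14. The other probe set of Sparc was higher with TCDD in thymocytes by 0.99, and with the mean of probe sets Sparc gave 0.37 there and no longer had opposite signs. Lamc1 in emigrants 1 (-0.06) and Thbs1 in emigrants 2 (0.26) also turned with that mean. Lamc1 had 0.43, Lamb1 0.37 and Thbs1 -0.25, the last with the directions turned, and Lamb1 and Thbs1 were under the bacterial control on all 6 arrays. The test of this difference in limma passed for none of the 11, with an adjusted p of 1.00 each. Higher in both emigrant pairs and lower in thymocytes were 10 of 35 members and 7.92% of all genes, and the opposite held for 1 of 35 and 12.4%.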

How the results depend on the processing

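No member passed limma's test under any alternative run, and the medians, and the members at an unadjusted p under 0.05, kept their direction. With the mean of probe sets, single members turned sign: 7 in thymocytes, 3 in emigrants 1, 3 in emigrants 2, 4 between TCDD and dioxane in emigrants and 4 between emigrants and thymocytes, among them Lox and Igfbp5. Without emigrants 2 with dioxane, 7 genes passed in emigrants against thymocytes (0 to 7 over the arrays left out), none of them a member. The count with both TCDD emigrant arrays above both dioxane arrays ran from 11 to 24 over the arrays left out (25.1% to 30.7% of all genes where an emigrant array was left out) and was 31 (45.3%) without both emigrant arrays numbered 1, an alternative chosen after seeing the data. That with both thymocyte arrays above all emigrant arrays ran from 11 to 24 (13.3% to 21.7%). Member medians over the arrays left out ran from 0.17 to 0.66 in emigrants, 0.02 to 0.51 over both sources, -1.12 to -0.42 for emigrants against thymocytes and 0.29 to 0.86 for the difference of effects. The last was 1.30 among the 18 members at or above the median level. With that filter, 2 members were 2-fold lower in thymocytes and 11 were 2-fold higher in emigrants 2. With the mean of probe sets, 0 were higher and 2 lower in thymocytes, 1 higher and 0 lower in emigrants 1, and 11 higher in emigrants 2. Cyclic loess gave 2 lower in emigrants 1. The share of all genes was not computed under the filter or cyclic loess, so these counts cannot be set against a background. The filter tests fewer genes; otherwise the cause was not tested.

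With the array number as a replicate block the calls stayed at 0, with a smallest adjusted p of 0.495 in emigrants (725 genes at an unadjusted p under 0.05, against 255 without the block), 0.282 over both sources (1334 against 659) and 1.00 for the difference of effects (279 against 97). Deviations of same-numbered emigrant arrays correlated at 0.56 across 12393 genes, which are not independent. Of 17 members with several probe sets above the control, the probe sets differed in sign for 9 in thymocytes, 8 in emigrants 1, 4 in emigrants 2 and 5 for emigrants against thymocytes. Levels near the bacterial control limit what can be read in emigrants.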
